A study of Homo sapiens with 9 samples.

Results

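The dense extracellular fraction of HMC-1 cultures was compared with the cells that released it, over all miRNA probes of the array. HMC-1 is a human mast cell line derived from a mast cell leukaemia. HD is extracellular RNA from the dense end of a sucrose gradient, and it was set against RNA of the cells. The samples were HD 1 to 3 and cells 1 to 3, which are 6 of the 9 arrays of the study. The other arrays held extracellular RNA from the light end of the gradient (LD 1 to 3) and served to show where HD differed from released RNA of another density. Cell, HD and LD samples of a number came from 1 culture per the design text, every culture was untreated as far as the labels say, and 1 cell line stands for mast cells throughout. RNA of all samples was extracted and labelled with Hy5 by the same kits and hybridised to 1-colour arrays of locked nucleic acid probes.

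Each array carried 2019 probes with a mature miRNA identifier. A probe counted as detected where the authors gave a normalized intensity, and a probe entered the test when 1 or more of the groups had it on all 3 arrays, which gave 334 probes. Levels are the authors' normalized intensities, scaled so that the median detected miRNA probe of an array is 25, or their log2. The amount of RNA per cell or per volume of medium was not measured, so that less of an RNA and more of all the others in a fraction cannot be told apart. By the chip number and date in the array names, all 3 cell arrays were on 1 slide and all 3 HD arrays on another. The cell arrays carried a later date than the HD and LD arrays. Slide, date and group thus cannot be told apart in this comparison. Blood cell miRNAs marked the cells as labelled: 9 of 12 on the list were detected on all 3 cell arrays, while miR-155-5p and miR-181a-5p were detected on none. On HD arrays the summed level of that list lay between 25.5 and 56.0, against 2595 to 4743 on cell arrays.

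MicroRNAs are short RNAs that guide Argonaute proteins to messenger RNAs through a seed near their 5′ end. They are cut from hairpins by Drosha in the nucleus and by Dicer in the cytoplasm. Cells release small RNAs within vesicles and bound to proteins, and a sucrose gradient parts such particles by buoyant density. Mast cells are tissue-resident blood cells of allergy, known for granules of histamine and proteases and for growth driven by the receptor KIT.

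The following mature sequences, from RefSeq with positions on GRCh38.p14, belong to the probes that carried most of the HD signal or changed most upward. Capitals mark the seed, bases 2 to 8. Positions are those of the mature miRNA, and a gene named with one is a gene whose span contains it.
miR-4530: cCCAGCAGgacgggagcg
miR-204-3p: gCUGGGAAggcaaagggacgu
miR-4497: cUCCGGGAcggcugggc
miR-6126: gUGAAGGCccggcggaga
miR-4688: uAGGGGCAgcagaggaccuggg
miR-4739: aAGGGAGGaggagcggaggggcccu
miR-1275: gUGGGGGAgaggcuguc
miR-1202: gUGCCAGCugcagugggggag
miR-6124: gGGAAAAGgaagggggagga
miR-4655-5p: cACCGGGGauggcagagggucg
miR-4530 lies at chr19:39409629-39409646 on the minus strand, miR-204-3p at chr9:70809993-70810013 (minus, within TRPM3), and miR-4497 at chr12:109833350-109833366 (plus, within TRPV4). miR-4688 lies at chr11:46376456-46376477 (plus, within DGKZ), miR-1202 at chr6:155946809-155946829 (plus), and miR-4655-5p at chr7:1844223-1844244 (minus, within MAD1L1). Each of these 10 seeds was different.

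The second set belongs to probes that were bright in cells and at or near the detection floor in HD, written in the same way.
miR-4454: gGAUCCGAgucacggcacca
miR-1260b: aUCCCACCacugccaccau
miR-4284: gGGCUCACaucaccccau
miR-16-5p: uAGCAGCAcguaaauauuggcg
miR-146b-5p: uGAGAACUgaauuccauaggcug
miR-21-5p: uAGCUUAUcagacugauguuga
let-7d-5p: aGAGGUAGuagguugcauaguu
miR-17-5p: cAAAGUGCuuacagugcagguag
miR-20b-5p: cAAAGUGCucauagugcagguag
miR-142-5p: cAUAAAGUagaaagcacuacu
miR-17-5p and miR-20b-5p share the seed AAAGUGC although they lie on different chromosomes, at chr13:91350618-91350640 (plus) and chrX:134169850-134169872 (minus). miR-21-5p lies at chr17:59841273-59841294 (plus, within VMP1) and miR-146b-5p at chr10:102436520-102436542 (plus). The first set is rich in G and the second holds more A and U, a difference that is counted over all tested probes further on.

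HD held fewer detected miRNAs than cells, and its signal was spread over a different set of them. In HD, 323, 329 and 254 probes were detected in cultures 1 to 3, against 470, 506 and 440 in cells. The means were 302 ± 41.7 and 472 ± 33.0 (SD, n = 3 each), and the groups did not overlap (exact permutation test, two-sided, p = 0.1, the smallest that 3 arrays against 3 can give). Much of this detection was close to the blank spots: 85, 86 and 82 probes of HD were brighter than every blank spot of their array, against 177, 147 and 125 of cells. The 10 brightest probes of an array took 56.2 ± 1.43% of its summed miRNA signal in HD and 64.4 ± 3.38% in cells, again without overlap (exact p = 0.1). The signal of HD was less concentrated in its first few probes: 50% of it was reached with 8, 8 and 9 probes in HD and with 2, 2 and 4 probes in cells, where miR-4454 alone was close to that share.

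Shares of the summed signal do not depend on how an array is scaled, and they showed near-complete exchange of the leading probes. The 10 probes brightest in HD held 57.2%, 54.1% and 53.8% of the HD signal, against 2.71%, 1.79% and 2.26% of the cell signal. The 10 probes brightest in cells held 0.911%, 0.266% and 0.611% of the HD signal, against 65.8%, 66.2% and 60.3% of the cell signal. None of the 10 brightest probes was common to both, and 7 of the 50 brightest and 31 of the 100 brightest were. Signals differ between probes with sequence as well as amount, so a share of signal is not a share of molecules, and sets chosen for brightness on these arrays were bound to differ in this direction.

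miR-4530 was the brightest probe of HD, with 13.99%, 16.6% and 15.7% of the signal in the 3 HD arrays, against 0.214%, 0.103% and 0.129% in the cell arrays. miR-4454, an entry whose sequence has been reported to match a tRNA, took 0.634%, 0.213% and 0.523% in HD, against 49.2%, 49.2% and 43.2% in cells. Entries numbered below 1000 in miRBase, which are the miRNAs described earliest, took 16.04 ± 2.17% of the HD signal and 31.7 ± 5.73% of the cell signal (SD, n = 3 each).

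**Figure D1:**
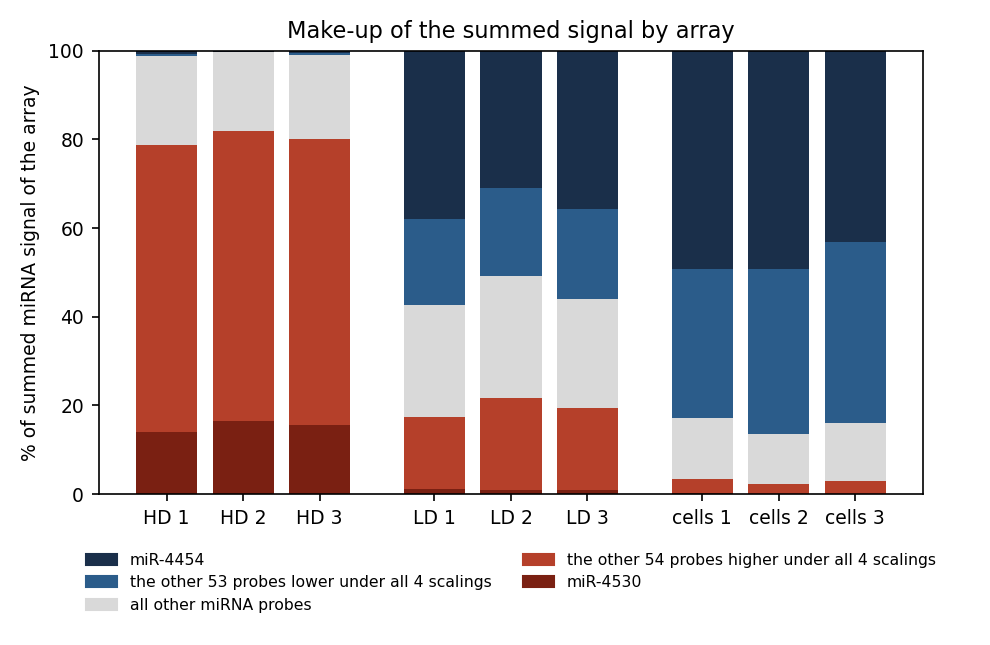
Share of the summed miRNA signal (%, vertical axis) of each array, for HD 1 to 3, LD 1 to 3 and cells 1 to 3, split into the probes called higher and lower in HD than in cells under all 4 scalings, with miR-4530 and miR-4454 drawn apart. The higher set fills 78.7% to 81.9% of each HD bar and 2.25% to 3.49% of each cell bar, and the LD bars lie between; the sets were chosen by the HD and cell arrays, so this is a description.

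Across the 334 tested probes, HD and cells differed for most. limma called 267 probes (79.9%) at an adjusted p under 0.05, of which 102 were higher in HD (30.5%) and 165 lower (49.4%). The direction of many calls depended on how arrays were scaled, since the median change of all tested probes was -0.70 on the log2 scale with the authors' scaling, -0.51 without scaling, -2.16 when aligned on probes that every array detected, and 2.24 when they were aligned on spike controls. The split of higher against lower calls was accordingly 76 to 111 without scaling, 55 to 220 on the shared probes and 225 to 54 on spike controls. Under all 4 of these scalings 55 probes were called higher (16.5%) and 54 lower (16.2%), and these are the calls that do not rest on a choice of scale. The spike controls themselves had a mean normalized signal of 1711 to 2939 on HD arrays and 12982 to 19157 on cell arrays.

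In single cultures the picture was similar: 130, 134 and 140 probes were higher in HD than in the cells of cultures 1, 2 and 3, and 203, 198 and 194 were lower. The direction was the same in all 3 cultures for 115 higher and 177 lower probes, and mixed or not measured in all for 42. Correlations of log2 signal across the tested probes lay between 0.962 and 0.972 for HD arrays among themselves. For HD with cell arrays they lay between -0.07 and 0.119. Of the tested probes, 186 were detected on all 3 cell arrays but not on all 3 HD arrays, so many HD values stand at or near the floor. The correlations thus depend on how probes entered the test, and probes are not independent replicates.

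**Figure D2:**
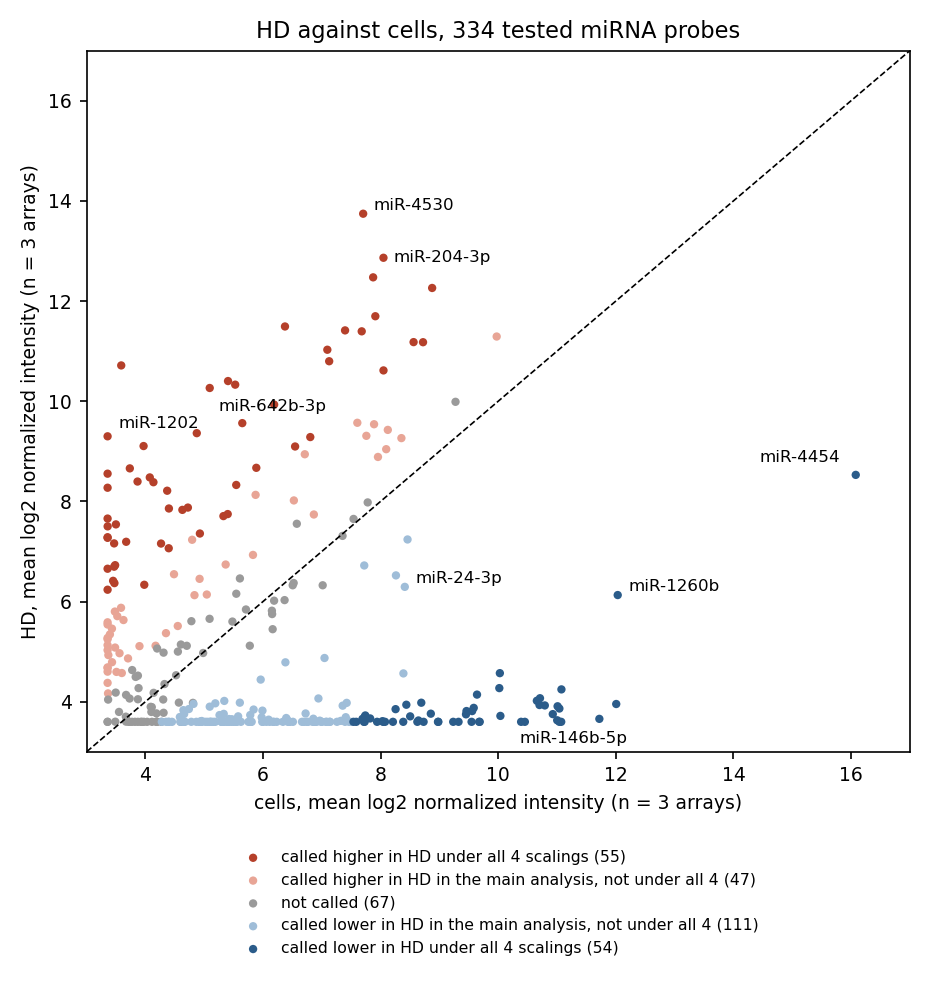
Mean log2 normalized intensity of 334 tested probes in HD (vertical axis) against cells (horizontal axis), n = 3 arrays each, coloured by call, with the line of equal level dashed. The 54 probes lower under all 4 scalings lie at the right, at or near the HD floor except miR-4454 and miR-1260b, and the 55 probes higher under all 4 lie well above the line.

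Entries numbered 1000 or above took 84.0% of the HD signal, against 84.6% of the LD signal and 68.3% of the cell signal, and they made up 57.9% of the probes on the array. HD and LD were thus close in this share, and the entries that led it in HD are given first. miR-4530 had 14498, 19744 and 9047 normalized units in HD, against 298, 204 and 149 in cells. Every HD array was far above every cell array, and the change was 6.04 ± 0.36 on the log2 scale (SE, n = 3 per group), 65.9-fold, with a limma adjusted p of 1.7e-07. The 95% interval of that log2 change was 5.25 to 6.83.

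miR-204-3p, the arm opposite the better known miR-204-5p in a hairpin within the ion channel gene TRPM3, had 10433, 8524 and 4670 units in HD, against 281, 298 and 221 in cells. The groups did not overlap, and the log2 change was 4.82 ± 0.32 (28.2-fold). miR-4688 had 5680, 2622 and 1607 units in HD, against 135, 77.6 and 54.3 in cells, a log2 change of 5.12 ± 0.43 (34.8-fold). Among HD arrays miR-4688 varied more than miR-204-3p, yet its lowest HD value was above its highest cell value.

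Probes chosen for brightness in HD lean toward a higher call. Of the 10 brightest HD probes, 9 were called higher under all 4 scalings, against 16.5% of all tested probes. The exception was miR-3960, with 3488, 3038 and 1489 units in HD, against 1175, 1129 and 766 in cells. Its groups did not overlap, but its log2 change of 1.32 ± 0.38 (limma adjusted p = 0.0079) turned to -0.14 on the shared-probe scale and missed the threshold without culture 2 (limma adjusted p = 0.076). miR-4497, miR-6126, miR-4739 and miR-4484 were 10.4-fold, 13.8-fold, 16.2-fold and 13.2-fold higher in HD than in cells. miR-3648, which lies in a spacer of the ribosomal RNA precursor, spread most among the HD arrays, with 4851, 2583 and 998 units, against 366, 441 and 333 in cells, and it was 6.15-fold higher.

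Less bright probes rose as steeply. miR-1275 had 1191, 2470 and 844 units in HD, against 48.0, 38.4 and 41.2 in cells, a log2 change of 5.00 ± 0.42. miR-4459 and miR-4792 rose by log2 changes of 4.80 ± 0.29 and 4.53 ± 0.42, and each HD value of both was more than every cell value. The largest rise of any tested probe was that of miR-4655-5p, named here after its values were seen: 1838, 2536 and 1019 units in HD, against 15.1 and 11.3 in cells 1 and 3 and no detection in cells 2. Its log2 change was 7.13 ± 0.50, a fold that understates the difference because 1 cell value is a floor.

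Detection in HD without detection in cells was seen for 18 probes, 16 of them numbered 1000 or above. All 18 were called higher, as this choice of probes sets the cell values at the floor and fixes the direction. miR-1202 had 641, 1089 and 358 units in HD and was detected on no cell array, so that it was at least 61.5-fold higher on the authors' scale. miR-887 had 472, 562 and 199.8 units in HD and none detected in cells, at least 36.7-fold higher. miR-6124 was at least 30.2-fold and miR-4689 at least 19.7-fold higher in HD. Of the 18 probes, 9 were not detected on any LD array either, and all of these were numbered 1000 or above. miR-3619-3p was the brightest among them, with 186, 171 and 119 units in HD, at least 15.2-fold above cells. miR-1224-5p had 87.6, 297 and 142 units in HD, at least 15.1-fold above cells, and is a mirtron arm, cut from an intron by the splicing machinery.

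In all, 142 probes were detected on all 3 HD arrays, and 113 of them (79.6%) were numbered 1000 or above, against 42.2% of the 277 probes detected on all 3 cell arrays and 57.9% of the 2019 probes on the array. With the stricter demand that a probe be brighter than every blank spot on all 3 arrays, 70 probes remained in HD and 124 in cells. Of the 70 in HD, 62 were called higher, 3 lower and 5 were not called, and 57 were numbered 1000 or above. Of the 124 in cells, 25 were called higher, 94 lower and 5 were not called, and 46 were numbered 1000 or above. Probes chosen for brightness in a group lean toward a call in favour of that group, so these counts are descriptions. Among the 142 probes 71.1% were called higher, against 30.5% of all tested probes.

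Of the 102 higher probes, 21 were numbered below 1000, against 174 of all 334 tested probes (52.1%). Besides miR-204-3p these included miR-575, with 707, 1889 and 324 units in HD, against 43.2, 63.5 and 45.9 in cells (log2 change 3.92 ± 0.48), and the miR-642 arms. miR-642a-3p and miR-642b-3p are cut from opposite strands of 1 place within GIPR, the gene of an incretin receptor, and share their seed. They differ at 1 base, A20C, counted from 1 at the 5′ end of miR-642a-3p, and the differing base is the capital.
miR-642b-3p: agacacauuuggagagggaCcc
miR-642a-3p: agacacauuuggagagggaAcc
miR-642b-3p lies at chr19:45674941-45674962 (minus) and miR-642a-3p at chr19:45674978-45674999 (plus). miR-642b-3p had 1798, 912 and 1135 units in HD, against 27.5, 49.8 and 29.0 in cells, a log2 change of 5.17 ± 0.36. miR-642a-3p had 145, 130 and 96.3 units in HD, against 56.1, 62.2 and 52.6 in cells, a log2 change of 1.10 ± 0.28, which turned to -0.35 on the shared-probe scale. The gap between the pair was 4.07 on the log2 scale. Among the 10 pairs of tested miRNAs of equal length that differ at 1 base, the next gap was 2.13, between miR-27a-3p and miR-27b-3p, and the other pairs all lay below that. Probes of such pairs can bind each other's target, and the pair was picked after its values were seen.

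**Figure D3:**
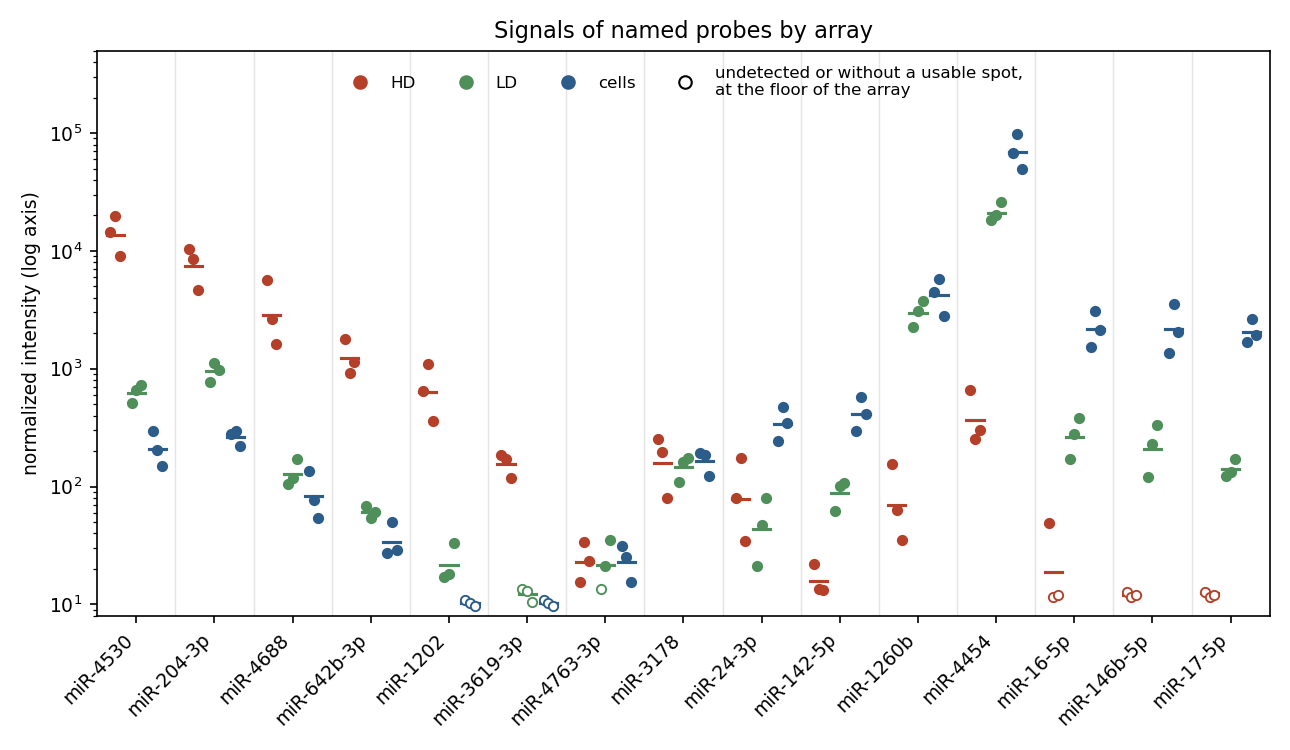
Normalized intensity (log axis) of 15 named probes on each HD, LD and cell array, with points for arrays, bars for geometric means, and open points where the probe was undetected or had no usable spot and stands at the floor of the array. The 6 probes at the left are bright in HD, miR-4763-3p and miR-3178 overlap between HD and cells, and the 7 at the right are bright in cells.

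By number, the probes that cells had and HD lacked were mostly entries numbered below 1000. The largest falls were those of miR-4284 (-8.06) and miR-4286 (-8.05), which are described further on. Of 277 probes detected on all 3 cell arrays, 106 were detected on no HD array, and 91 of those were numbered below 1000. Numbers below 1000 made up 160 of the 277 probes (57.8%) and 42.1% of all probes on the array. Of the 106, 92 were called lower and the other 14 were not called. A level in HD near the floor gives only a lower limit to the loss. A probe that entered the test through the cell arrays and not through HD was bound to lie toward the lower side: of 186 probes detected on all 3 cell arrays but not on all 3 HD arrays, 157 were lower (84.4%), with a median log2 change of -2.43. All tested members of the growth, hypoxia and metabolism lists below were of that kind, so their counts and medians are descriptions. Their HD levels lay at or near the floor, so a list median mostly follows how bright its members were in cells. A median below that of the 186 probes therefore does not show a deeper loss.

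Of miRNAs that restrain growth, all 22 tested members were lower in HD. Their median log2 change was -5.26, against -2.43 over the 186 probes and -0.70 over all tested probes, of which 49.4% were lower. Under all 4 scalings 17 of the 22 were lower. miR-16-5p, which restrains the survival factor BCL2, was detected on 1 HD array at 49.2 units, against 1525, 3118 and 2113 in cells, and fell by 6.83 ± 0.58. let-7f-5p, of a family that restrains RAS and promotes differentiation, fell by 7.10 ± 0.41 and was detected on 1 HD array. let-7a-5p of the same family had a log2 change of -6.64 ± 0.37, with detection on 2 HD arrays. let-7d-5p was undetected in HD, against 1038, 1905 and 1394 units in cells, at least 116-fold lower. miR-34a-5p, a target of the p53 tumour suppressor, fell by 3.49 ± 0.31, and miR-101-3p, which restrains the chromatin enzyme EZH2, fell by 1.35 ± 0.35. The summed signal of the list was 0.090 ± 0.078% of the total in HD and 10.1 ± 2.55% in cells.

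Of miRNAs that promote growth, all 20 tested members were lower as well, with a median of -4.44, against -2.43 over the 186 probes, and 12 of them under all 4 scalings. miR-17-5p, the first arm of the MYC-driven miR-17 cluster, was undetected in HD 1 and HD 3 and had a spot marked NG in HD 2, against 1696, 2643 and 1930 units in cells. The NG spot, left out of the fit, had a raw intensity of 90.5 over a background of 57.4, which would be 159 normalized units. With that spot left out the log2 change was -7.30 ± 0.32, and with it kept, an alternative added after the data were seen, the change was -6.15 ± 0.67 (70.9-fold lower, limma adjusted p = 1.2e-05). miR-20b-5p of the paralogous cluster on the X chromosome was at least 111-fold lower. miR-21-5p, which protects cells from apoptosis, was detected on 1 HD array at 22.2 units, against 1299, 3408 and 2110 in cells, and fell by 7.18 ± 0.42. miR-221-3p, a miRNA that targets KIT, was undetected in HD and at least 32.6-fold lower. Its cluster partner miR-222-3p, undetected in HD too, had a log2 change of -3.17 ± 0.35. The list held 0.075 ± 0.057% of the HD signal and 8.90 ± 1.25% of the cell signal. Families of opposite known effect on growth were thus lower side by side.

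Of 12 tested miRNAs of immune signalling, 11 were lower and none higher, 1 had no call, and the median was -3.38; all but miR-24-3p were among the 186 probes. miR-146b-5p and miR-146a-5p, which damp signalling from Toll-like receptors, share a seed. miR-146b-5p was undetected in HD, against 1362, 3557 and 2058 units in cells, at least 178-fold lower, while miR-146a-5p fell by 4.16 ± 0.30, detected on 1 HD array. miR-132-3p was the member that was not called, at a log2 change of -1.004 ± 0.45 (limma adjusted p = 0.061). miR-24-3p was the member that HD kept: it had 80.03, 176 and 34.3 units in HD, against 242, 472 and 346 in cells, a log2 change of -2.12 ± 0.53, and it was the 1 immune miRNA detected on all 3 HD arrays. Its neighbours in the same hairpin cluster on chromosome 19, miR-23a-3p and miR-27a-3p, changed by -5.50 ± 0.47 and -3.47 ± 0.32.

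All 10 tested miRNAs of hypoxia and metabolism were lower, with a median of -3.63, against 84.4% lower and a median of -2.43 among the 186 probes, and 3 of them were lower under all 4 scalings. miR-210, the miRNA most regularly induced by hypoxia, was undetected in HD, against 183, 479 and 425 units in cells, at least 27.6-fold lower. miR-103a-3p and miR-107, which share a seed and act on insulin sensitivity, were at least 67.6-fold lower with no HD detection and 52.2-fold lower with detection on 1 HD array.

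**Figure D4:**
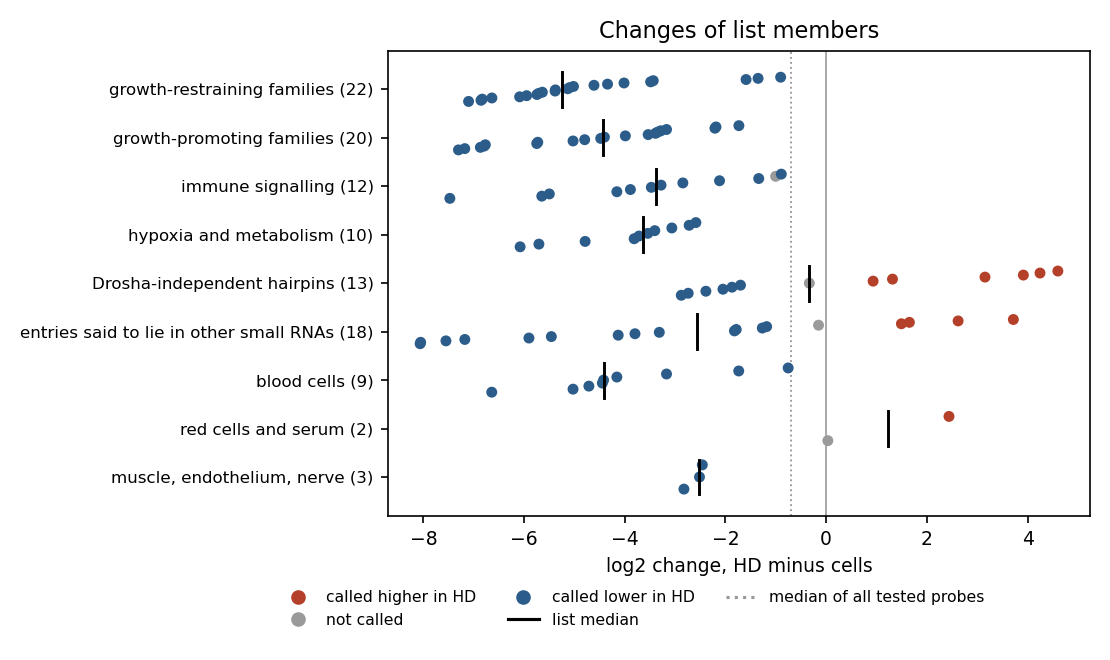
Log2 change of HD minus cells (horizontal axis) for the tested members of each list (rows, number of tested members in brackets), coloured by call, with the list median in black and the median of all tested probes (-0.70) dotted. Members of the growth, immune signalling, and hypoxia and metabolism lists lie to the left of 0, and the Drosha-independent hairpins fall on both sides.

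The brightest probes of the cells were entries whose sequences have been reported to lie in other small RNAs, such as tRNAs. miR-4454 had 658, 254 and 302 units in HD, against 68312, 97820 and 49890 in cells, and fell by 7.55 ± 0.41 (188-fold lower, limma adjusted p = 1.1e-07). miR-1260b, whose sequence matches a leucine tRNA, had 156, 62.7 and 34.98 units in HD, against 4502, 5808 and 2813 in cells, and fell by 5.90 ± 0.48. Both were detected on all 3 HD arrays and both lay below every cell value. miR-4286 was detected on 2 HD arrays at 20.6 and 15.6 units, against 4063, 6202 and 2770 in cells. miR-4284 was detected on 1 HD array at 14.5 units, against 4590, 3469 and 2414 in cells.

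Of the 18 tested members of that list, 13 were lower and 4 higher, 1 had no call, and the median was -2.57. Over all tested probes 49.4% were lower and 30.5% higher. Under all 4 scalings 7 members were lower and 2 higher. Apart from miR-4454 and miR-1260b, the lower members were detected on all 3 cell arrays but not on all 3 HD arrays. Of the 186 such probes 84.4% were lower, so these counts are descriptions. The members did not move as 1 group. The snoRNA-derived entries miR-3607-3p, miR-3653 and miR-664a-3p were lower and on no HD array, with changes of -3.80 ± 0.32, -1.79 ± 0.35 and -3.31 ± 0.31. miR-1246, reported as a fragment of U2 small nuclear RNA, was higher by 1.65 ± 0.39. Both ribosomal spacer entries of the list parted: miR-3648 was higher by 2.62 ± 0.50 and miR-3687 lower by 1.18 ± 0.34, the second with no HD detection. The list held 7.80 ± 2.43% of the HD signal and 58.5 ± 4.82% of the cell signal.

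Of the blood cell markers all 9 tested members were lower in HD, with a median of -4.42, and 6 of them under all 4 scalings; 8 of the 9 had entered the test through the cell arrays and not through HD. The myeloid miR-223-3p was detected on 1 HD array at 34.1 units, against 1103, 2393 and 1783 in cells. Both arms of the haematopoietic miR-142 hairpin were lower. miR-142-5p had 21.9, 13.5 and 13.2 units in HD, against 298, 579 and 410 in cells. miR-142-3p was detected on no HD array, against 152, 409 and 294 units in cells. The floors of HD 1 to 3 were 12.8, 11.6 and 12.0 units, so the arms differed in detection only near the floor.

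Markers of other sources fell into 3 lists. miR-451a, the leading miRNA of red cells, had 568, 49.6 and 121 units in HD, against no detection in cells 1 and 52.4 and 37.1 in cells 2 and 3. The groups overlapped, and the log2 change of 2.44 ± 0.86 (limma adjusted p = 0.023) was 0.81 without culture 1 (limma adjusted p = 0.081) and 2.81 without culture 3 (limma adjusted p = 0.072). Over all 6 red cell and serum markers the summed level was 68.2 to 597 in HD, against 11.3 to 78.8 in cells. miR-144-3p was detected on 1 HD array and no cell array, and miR-122-5p, of liver, on no HD array. The part of serum in the HD signal was not tested. None of the epithelial markers was detected on all 3 arrays of HD or of cells, and their summed level was at most 28.6 in HD, against at most 39.97 in cells. All 10 markers of muscle, endothelium and nerve were undetected on every HD array, against a summed level of 198 to 396 in cells. The 3 that were tested (miR-9-5p, miR-126-3p and miR-128) were lower, at a median of -2.52, none of them under all 4 scalings. miR-126-3p of endothelium fell by 2.83 ± 0.38, but on spike controls it turned to 0.12.

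HD and cells also shared probes: 91 were detected on all 6 arrays, of which 57 were higher, 8 lower and 26 not called. Over all tested probes 30.5% were higher and 49.4% lower. The higher calls rest on the scale too, since over all tested probes they fell from 102 to 55 on the shared-probe scale. Besides miR-4454, miR-1260b, miR-142-5p and miR-24-3p, the 8 lower ones were miR-4505, miR-4508, miR-494 and miR-3665. miR-4505 had 37.2, 34.7 and 19.5 units in HD, against 152, 151 and 100.4 in cells, a log2 change of -2.17 ± 0.32. Direction for all 4 and for miR-24-3p turned on spike controls, where their log2 changes were between 0.77 and 1.94. Without culture 2, miR-4508, miR-494 and miR-3665 also missed the threshold (limma adjusted p = 0.054, 0.095 and 0.11), as did miR-494 and miR-3665 without culture 3 (limma adjusted p = 0.074 and 0.054). The probes nearest to equal included miR-4763-3p, with 15.6, 34.0 and 23.2 units in HD, against 31.3, 25.04 and 15.4 in cells, where the log2 change of 0.01 ± 0.43 had a 95% interval of -0.95 to 0.97. miR-3178 had 255, 197 and 79.6 units in HD, against 193, 184 and 123 in cells, at -0.04 ± 0.40. The values overlapped for both, and the interval shows how large a difference 3 arrays a group could leave unseen.

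Hairpins that reach Dicer without Drosha divided into opposite directions. Of 13 tested members, 6 were higher and 6 lower, with a median of -0.33 that lay above 0 under 7 of the other settings, so that no direction is given for the list. The 5 members of the miR-320 family, whose precursor is made directly by transcription, and miR-484, of the same kind, were the 6 lower ones, from miR-320a at -2.88 ± 0.35 to miR-320d at -1.70 ± 0.26. The 6 higher ones were arms of reported mirtrons: miR-1234-5p, miR-1229-5p, miR-1224-5p, miR-1227-5p, miR-1228-3p and miR-1237-5p. miR-1234-5p had 4868, 9689 and 3907 units in HD, against 285, 215 and 210 in cells, a log2 change of 4.60 ± 0.38. miR-1229-5p had 268, 664 and 209 units in HD, against 13.4, 19.8 and 20.5 in cells, a log2 change of 4.25 ± 0.36. Of the 6, 4 were higher under all 4 scalings, and none of the lower ones was lower under all 4. Over all tested probes 30.5% were higher and 49.4% lower. The 6 lower members were detected on all 3 cell arrays but not on all 3 HD arrays, and 84.4% of the 186 such probes were lower. The 6 higher members were detected on all 3 HD arrays, and 71.1% of the 142 such probes were higher. The split of the list is thus a description.

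Arms of 1 hairpin, which are made in equal number, could part as well. Over all tested probes 49.4% were lower and 30.5% higher. Of 19 hairpins with both arms tested, 10 had both arms lower, none had both higher, 5 had 1 arm not called and 4 had arms called in opposite directions. All 4 of the last had the 5p arm higher and the 3p arm lower in HD, and they are named here after their values were seen. Each of these 3p arms was detected on all 3 cell arrays and on no HD array. Of the 186 probes detected on all 3 cell arrays but not on all 3 HD arrays, 84.4% were lower. Each of the 5p arms was detected on all 3 HD arrays, and 71.1% of such probes were higher. The opposite calls are thus descriptions. miR-423-5p had 97.7, 249 and 98.5 units in HD, against 21.2, 19.2 and 22.8 in cells, a log2 change of 2.67 ± 0.36. miR-423-3p was detected on no HD array, against 102, 104 and 116 units in cells, and was at least 8.85-fold lower on the authors' scale. The hairpin lies on chromosome 17 within NSRP1, and its arms are shown with seeds in capitals.
miR-423-5p: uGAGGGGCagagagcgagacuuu
miR-423-3p: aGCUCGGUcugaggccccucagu
miR-92b parted by 2.43 ± 0.34 for the 5p arm and -3.39 ± 0.37 for the 3p arm, miR-652 by 1.10 ± 0.33 and -3.25 ± 0.34, and miR-4758 by 1.41 ± 0.32 and -1.70 ± 0.32. Of these 8 arms, miR-423-5p and miR-92b-5p were called under all 4 scalings.

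Probes were also grouped by seed. Of 34 seeds shared by 2 or more tested probes (93 probes), 18 had all members lower, 7 had all members higher, and 9 had neither. Against this stand 49.4% lower and 30.5% higher over all tested probes, and a shared direction by seed was not tested. The seed GAGGUAG of let-7 had 8 of 8 members lower, 5 of them on no HD array. The seed AAAGUGC of miR-17-5p and miR-20b-5p had 6 of 6 lower, from miR-17-5p at -7.30 with its NG spot left out to miR-106b-5p at -4.80. All members of both seeds were detected on all 3 cell arrays but not on all 3 HD arrays. Of the 186 such probes 84.4% were lower, so these counts are descriptions. The seeds with all members higher had 2 members each, among them UGGGGGA of miR-1275 and miR-4665-5p. For 1 seed, GGCUGGG, the calls were opposite, with miR-5787 at 2.46 and miR-4505 at -2.17.

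By position on the chromosome, 35 places held 2 or more tested miRNAs within 10 kb on 1 strand. Of these, 18 had all members lower, none had all members higher and 17 had neither. Of all tested probes 49.4% were lower and 30.5% higher, and whether neighbours moved together beyond these shares was not tested. The miR-17 cluster at chr13:91350618-91351382 had 8 of 8 tested arms lower, with changes from -7.30 to -0.85. Its paralogue at chrX:134169544-134170266 had 5 of 6 lower, and the exception was miR-92a-2-5p, an arm detected on all 3 HD and on no cell array, at 1.67 ± 0.35. The lower members of both clusters were detected on all 3 cell arrays but not on all 3 HD arrays. Of the 186 such probes 84.4% were lower, so these counts are descriptions. Some miRNAs lie in several places and were counted in each.

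The composition of the mature sequences differed between what HD held and what it lacked. RefSeq gave a mature sequence of the same name for 277 of the 334 tested probes. Median G content was 50% in the 85 probes higher in HD, 46.8% in the 58 not called and 27.3% in the 134 lower. Median GC content was 70.8%, 66.7% and 47.6%, and median U content was 10%, 18.2% and 26.1% in the same order. Across the 277 probes GC content correlated with the log2 change at r = 0.578, with 0.497 within the 146 entries numbered below 1000 and 0.223 within the 131 numbered 1000 or above. These correlations are descriptions, as the probes share arrays and probe binding itself depends on base composition.

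Calls followed GC content by range. Of 28 tested miRNAs below 40% GC, none was higher in HD and 26 were lower. From 50% to 60%, 14 of 58 were higher and 31 lower, and from 60% to 70%, 22 of 58 were higher and as many lower. At 80% or more, 22 of 35 were higher and 3 lower.

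**Figure D5:**
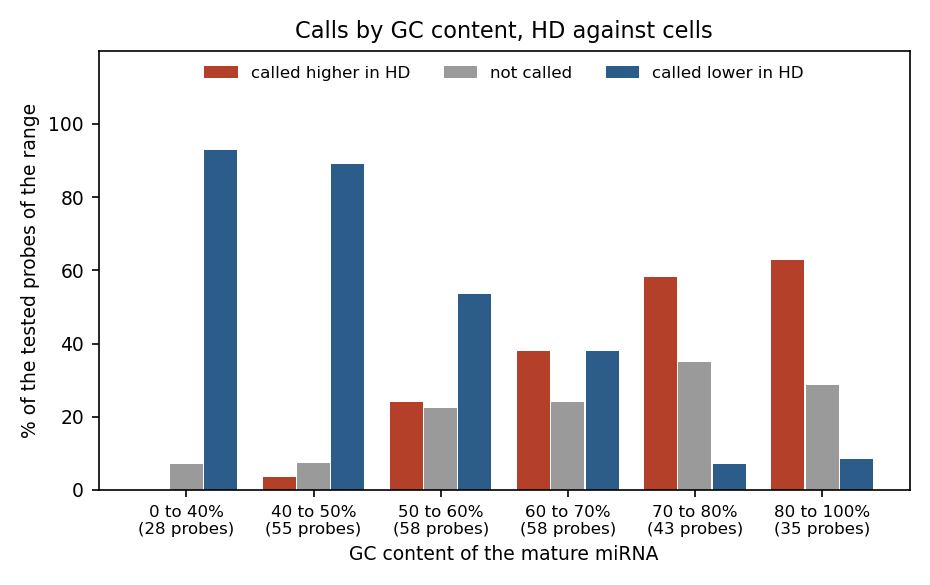
Share of tested miRNA probes (%, vertical axis) called higher, not called and called lower in HD against cells, by range of GC content of the mature miRNA (horizontal axis, number of probes in brackets). The share called higher grows and the share called lower shrinks from the left to the right of the axis, up to 80% GC.

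The motif GGAG, part of a motif reported in miRNAs sorted into exosomes of human T cells, was searched on the mature strand. It was in 42 of 85 miRNAs higher in HD (49.4%), 15 of 58 not called (25.9%) and 13 of 134 lower (9.70%). These compare with 25.3% of the 277 tested sequences and 14.9% of the 1688 on the array. Among entries numbered 1000 or above, GGAG was in 48.5% of the higher and 23.1% of the lower. Among those numbered below 1000 it was in 52.9% and 6.48%. The run GGGG, which can overlap GGAG, was in 58.8%, 39.7% and 5.22% of the higher, not called and lower groups, against 28.9% of the tested and 10.1% of all. Probes with GGAG took 42.4 ± 2.06% of the HD signal and 4.14 ± 0.83% of the cell signal (SD, n = 3 each). The motifs CCCU and UGCC, searched for comparison, were in 5.88% and 7.06% of the higher miRNAs and in 8.21% and 7.46% of the lower. GGAG and GGGG both go with G content, and the part of each was not tested apart.

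HD also differed from LD, the lighter RNA of the same cultures. limma called 174 of 334 probes (52.1%), 88 higher in HD (26.3%) and 86 lower (25.7%), and without culture 2 it called 113, of which 53 were higher and 60 lower. LD 1 was on the slide of the HD arrays and LD 2 and 3 on another. All HD and LD arrays shared a date that the cell arrays did not, so where LD stands between HD and cells cannot be told apart from date. Within the shared slide the mean of HD minus LD 1 was 4.75 on the log2 scale for miR-4530 and -5.62 for miR-4454, from arrays that also entered the fit. The correlation of log2 signal between HD and LD arrays was 0.531 to 0.641 over the tested probes, many of them at or near the floor in HD. Of the 10 brightest probes 6 were common to both. LD lay between HD and cells for the leading probes: miR-4530 was 22.0-fold higher in HD than in LD, which had 510, 658 and 724 units, and miR-4454 was 57.3-fold lower in HD than in LD, which had 18175, 20287 and 25764 units.

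The largest rises of HD over LD among probes seen on all HD and cell arrays were those of miR-575 (log2 change 4.54 ± 0.48), miR-4688 (4.49 ± 0.43), miR-4530 (4.46 ± 0.36) and miR-642b-3p (4.33 ± 0.36). The 4 probes higher in HD than in cells with the lowest difference from LD were miR-663a at -0.80 ± 0.43, miR-6125 at -0.63 ± 0.36, miR-642a-3p at -0.58 ± 0.28 and miR-6090 at -0.51 ± 0.29, and none of these was called (limma adjusted p = 0.12 to 0.19). Of these, miR-6125 missed the threshold against cells without culture 1 or 2 (limma adjusted p = 0.11 and 0.13), miR-6090 without culture 2 (limma adjusted p = 0.091) and miR-663a without cells 3 (limma adjusted p = 0.064). Both miR-642 arms were thus higher in HD than in cells, while against LD miR-642b-3p was higher and miR-642a-3p was not called. miR-5100 was the most depleted against LD, with a log2 change of -7.43 ± 0.34, detected on 1 HD array at 16.5 units, against 2272, 2278 and 2396 in LD. Of the probes that HD lacked on all arrays, 31 were detected on all 3 cell and all 3 LD arrays, and 26 of them were numbered below 1000. Of the 277 probes detected on all 3 cell arrays, 57.8% were numbered below 1000.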

How the data were processed

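Per the file headers, each deposited array file holds 3 intensity columns: raw, after background subtraction, and after global normalization. Neither scanner nor software is given in the sources used here. Set against each other, the deposited columns show 1 background value taken off per array, values left empty below a detection limit near the blank spots, and 1 factor per array that sets the median of the detected probes to 25. A deposited table of log2 values for the series served as an alternative, and its columns are quantile-like.

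Log2 of the normalized intensity was analysed, with undetected values set to the lowest detected value of the array (3.26 to 3.75 in log2) and 25 values marked NG, a mark the files do not define, left out (3 in tested probes). limma 3.58.1 in R 4.3.3 fitted HD, cells and LD together with culture as a block, which the design text gives as the pairing. Same-numbered arrays deviated together at correlations of -0.284 to 0.212, so the pairing rests on that text. The tests were two-sided, with Benjamini-Hochberg adjustment over 334 probes and a threshold of 0.05, and the residual degrees of freedom were 4 with 6.05 prior. The "at least" folds compare the detected group with the floors of the other on the authors' scale, and they are not limits under other scalings. The log2 change of miR-1202 was 5.94 on the authors' scale and 4.49 on the shared-probe scale. That of let-7d-5p was -6.86 on the authors' scale and -3.91 on spike controls.

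Sequences came from RefSeq (GRCh38.p14), matched by miRNA name for 1688 of 2019 probes. The members, lists and alternatives were chosen with earlier results of these data known. Probes were named by a rule: the brightest in HD and in cells, the largest changes among probes seen on all 6 arrays, the largest bounds in either direction, the extremes against LD, up to 4 members of each list and the smallest changes. Python 3.11.15 with matplotlib 3.10.9 was used for counts and figures.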

Additional observations from a re-analysis of the deposited data

How the results depend on the processing

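Calls of HD against cells, 267 in all, numbered 140 with undetected values left missing and 64 over probes detected on all 6 arrays, where fewer probes could be tested. The 102 higher calls became 55 on shared-probe scaling, 225 on spike controls and 56 over the all-6 probes, and the 165 lower calls became 54 on spike controls, 63 with values left missing and 8 over the all-6 probes. Without the culture block there were 101 higher and 166 lower calls, with slide as a random block 108 and 167, and with quantile normalization 122 and 144. Leaving out arrays or cultures gave 85 to 108 higher and 142 to 167 lower calls. HD against LD, 174 calls, gave 100 without scaling, 113 with values left missing, 62 over all-6 probes and 113 to 179 with arrays or cultures left out; the 88 higher calls gave 29 without scaling, 53 on shared-probe scaling, 48 over all-6 probes and 53 to 97, and the 86 lower gave 56 on spike controls, 50 with values missing, 14 over all-6 probes and 60 to 94. Without the block there were 88 higher and 82 lower. The mean difference in detected probes, -170, was -65.3 when a probe had to be above every blank spot. Signs turned on shared-probe scaling for miR-3960 (-0.14), miR-6125 (-0.58), miR-642a-3p (-0.35), miR-6090 (-0.51) and the red cell and serum median (-0.22). On spike controls they turned for miR-4505 (0.77), miR-24-3p (0.83), miR-4508 (1.20), miR-494 (1.72), miR-3665 (1.94), miR-126-3p (0.12), miR-128 (0.43), miR-9-5p (0.48), the muscle, endothelium and nerve median (0.43) and the other small RNA median (0.38, and 1.49 over all-6 probes). HD minus LD of miR-4484 turned with quantile normalization (-0.091) and normexp (-0.095). The Drosha-independent median, -0.33, was 0.20 with quantile normalization, 0.30 with normexp, 0.21 in the deposited table, 2.61 on spike controls, 0.93 with values missing, 3.15 over all-6 probes and 0.22 over probes detected on at least 1 array. Apart from the smaller probe sets, the cause was not tested. With spots marked NG kept, an alternative chosen after seeing the data, the calls of HD against cells numbered 267 and those of HD against LD 173. Depth on arrays shows as signal over blank: 82 to 86 probes an array were brighter than every blank spot in HD, 77 to 125 in LD and 125 to 177 in cells.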
